A study of Mus musculus with 6 samples.

Results

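The interferon-stimulated genes are a set of 33 genes that cells switch on when interferons reach their receptors. Affymetrix arrays read them in CD71+Ter119+ cells, which carry the transferrin receptor and a surface antigen of red cells, sorted as erythroid progenitors from marrow of 6 female mice, each 6 weeks old. The 3 control mice were Bcl11a +/+, and the 3 knockout mice were Bcl11a fl/fl EpoR-Cre+, so that Cre, driven from the erythropoietin receptor gene, deletes the flanked part of Bcl11a in the red cell lineage. BCL11A is a transcriptional repressor best known for silencing embryonic and fetal globin genes. The labels name Cre and flanked alleles for the knockout mice alone and state no strain background, so effects of these cannot be told apart from that of Bcl11a. Each gene was read by the brightest probe set named for it alone, which gave 31 of the 33 genes a value, among 18193 genes measured in this way. Of the other 2, Isg15 was read only by a probe set that is also annotated to Gm9706, and Ifi44 had no probe set named for it.

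Type I interferons act through the receptor pair IFNAR1 and IFNAR2, whose Janus kinases activate the complex ISGF3. This complex, which holds STAT2 and IRF9, binds the interferon-stimulated response element (ISRE) in promoters. Interferon gamma acts through its own receptor and the gamma-activated site (GAS), and the immunity-related GTPases and guanylate-binding proteins are classic targets of that branch. In the marrow, interferons are known to restrain red cell production and to change the behaviour of stem cells.

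The promoters that follow show matches to the core of the ISRE, the element ISGF3 is known to bind, in 2 genes whose groups did not overlap (Irgm1, Igtp) and 3 whose groups did (Ifit1, Oas1a, Rsad2). Each is the stretch of 150 bases just before the RefSeq start of the gene (GRCm38.p6), 5′ to 3′ on the gene's strand, with matches to the ISRE core in capitals.
Irgm1 (chr11:48871421-48871570, minus strand): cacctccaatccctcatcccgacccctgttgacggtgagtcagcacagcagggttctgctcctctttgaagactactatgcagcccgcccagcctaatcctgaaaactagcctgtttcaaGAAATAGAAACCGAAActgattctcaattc
Igtp (chr11:58199406-58199555, plus strand): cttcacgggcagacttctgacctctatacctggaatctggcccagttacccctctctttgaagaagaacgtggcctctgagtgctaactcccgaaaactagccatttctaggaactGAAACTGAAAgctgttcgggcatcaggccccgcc
Ifit1 (chr19:34640739-34640888, plus strand): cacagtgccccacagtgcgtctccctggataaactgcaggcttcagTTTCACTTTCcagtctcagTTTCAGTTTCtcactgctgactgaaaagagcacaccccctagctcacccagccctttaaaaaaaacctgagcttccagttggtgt
Oas1a (chr5:120907526-120907675, minus strand): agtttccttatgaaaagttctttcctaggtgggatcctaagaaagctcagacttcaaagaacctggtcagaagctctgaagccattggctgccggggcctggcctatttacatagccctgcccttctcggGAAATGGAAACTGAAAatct
Rsad2 (chr12:26456453-26456602, minus strand): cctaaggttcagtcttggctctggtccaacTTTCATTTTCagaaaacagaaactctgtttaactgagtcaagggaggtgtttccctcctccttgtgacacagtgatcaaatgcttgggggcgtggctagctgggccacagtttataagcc
The core was searched on both strands as TTTC, 2 bases of any kind and TTTC again, which reads as GAAA on the other strand, and neighbouring matches may overlap, as those in Irgm1 and in Oas1a do. In windows from 250 bases before to 50 after the start, RefSeq listed 24 of the 33 genes, and 13 of the 24 had a match, against 3.99% of 27025 genes overall. The GAS motif TTCNNNGAA, which is its own reverse complement, matched in 6 of the 24 genes and in 9.55% of all genes. Among the 22 genes with both a window and a value, the 12 with an ISRE match had a median log2 change of 0.16 and the 10 without one a median of 0.25. All knockout values lay above all control values in 2 of the 12 and in 3 of the 10, against 12.3% of all genes. A match is a description of the letters only, and these arrays did not measure binding.

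The targeted gene, Bcl11a, had 7 probe sets, of which the brightest alone is given here. That probe set read 1475, 1553 and 1449.7 in the controls and 1286, 1419 and 1190.1 in the knockouts (log2 difference -0.20 ± 0.11, limma, adjusted p = 0.502). The groups did not overlap, but whether that probe set lies in the deleted part was not tested. The embryonic globin Hbb-y, a known target of BCL11A, read 67.4, 71.6 and 80.9 in the controls and 19266, 20104 and 19491 in the knockouts. Array medians lay between 67.5 and 70.9, and arrays of one group correlated at 0.981 to 0.986 over probe sets. Tfrc, the gene of CD71, and Slc4a1, the anion exchanger of red cells, were bright, at control means of 14288 and 20977. Both were chosen after their values were seen. Neutrophil markers summed higher than erythroid markers in every mouse (below), so brightness does not test the erythroid label. Markers of other cells also gave signal. The deposited table carries no detection calls, so signal alone does not show that such cells were present. Neutrophil markers summed to 195783 to 196459 per control mouse and 180906 to 187691 per knockout mouse, and B cell markers to 20179 to 23135 and 15872 to 20822. Erythroid markers summed to 75298 to 92093 in the controls and 96345 to 106739 in the knockouts, without overlap. All knockout values lay above all control values in 6 of the 9, against 12.3% of all genes and 22.7% of those in the brightest 25% of probe sets. Macrophage markers summed to 10604 to 11907 and 11509 to 12632, plasmacytoid dendritic cell markers outside the set to 16973 to 17066 and 13219 to 15652. Sums of neutrophil and of plasmacytoid dendritic cell markers also did not overlap, and were lower in the knockouts. All knockout values lay below all control values in 6 of 10 and 5 of 9 of these markers. The shares were 9.23% of all genes and 13.6% of those in the brightest 25% of probe sets. T and NK cell markers summed to 4164 to 4847 and 4301 to 4805, and eosinophil, basophil and mast cell markers to 25517 to 27100.1 and 21262 to 26472. The part of these cells in the results was not tested.

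More of these genes had higher than lower values in the knockout mice, with the smallest p-values in Irgm1, Igtp, Irf9 and Ifi35, but no single gene passed the test once the p-values of all probe sets were adjusted. Of the 31, 0 passed the test (limma on log2(intensity + 16), adjusted p threshold of 0.05 over all 45037 probe sets), in which 0.147% of probe sets passed in either direction. At an unadjusted p under 0.05, 8 were higher in the knockout (Irgm1, Igtp, Irf9, Ifi35, Parp14, Usp18, Oasl1 and Trim25) and 0 were lower, against 8.18% higher and 4.53% lower over all genes. All 3 knockout values lay above all 3 control values in 6 genes (Irgm1, Igtp, Irf9, Ifi35, Parp14 and Trim25) and below them in 0, where all genes gave 12.3% and 9.23%. Most of the 31 were bright, and 26 lay in the brightest 25% of probe sets. Of all genes in that class, 22.7% had knockout values that all exceeded the controls, against 6 of these 26, a share near that of other bright genes, and 13.6% had values that were all lower, against 0. In the same class 13.7% of genes were higher at an unadjusted p under 0.05, against 8 of these 26. With 3 mice per group, an exact permutation test of 1 gene cannot go below a two-sided p of 0.1.

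A log2 change above 0 was found in 24 of the 31 genes and in 49.8% of all genes. The median change was 0.20, beside a median of -0.0012 over all genes. In the brightest 25% of probe sets the medians were 0.21 and 0.014. The changes ran up to 0.77 (Igtp) and down to -0.22 (Ifit1), leaving aside Mx2, a probe set near the floor whose value was -0.34 and moved with the pseudocount. The size of the median depended on single mice. It was 0.087 without knockout mouse 3, 0.11 without control mouse 1, 0.13 without control mouse 3 and 0.29 without control mouse 2. In bulk RNA, fewer cells of one type and less RNA per cell cannot be told apart.

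Other settings of the test called up to 4 of the genes higher in the knockout and 0 lower. With an intensity trend and robust moderation, Igtp, Irgm1, Irf9 and Ifi35 passed, where 2.68% of all probe sets were called higher. The same 4 passed when only the brightest 25% of probe sets were tested. That was 4 of the 26 genes in this class, a share near the 11.6% of its probe sets called higher. Igtp and Irgm1 passed in the brightest 50% (3.14%) and with a pseudocount of 64 (1.13%).

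**Figure D1:**
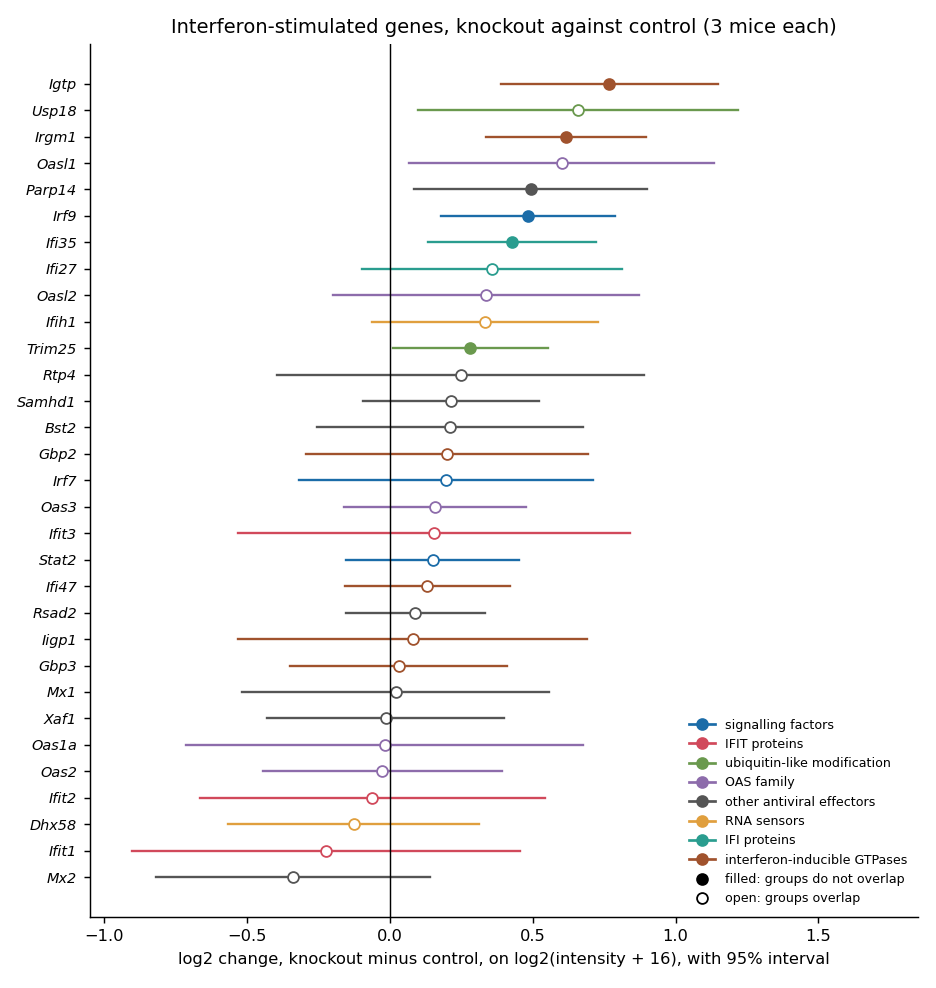
The log2 change of each of the 31 genes, knockout minus control, on the horizontal axis, with its 95% interval from limma (3 mice per group). Colours give the gene's role, and filled points are the 6 genes whose groups did not overlap. Most points lie right of 0, up to Igtp at 0.77, and the lowest is Mx2, a dim probe set.

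The interferon-inducible GTPases held the 2 smallest p-values of the set. They are made in response to interferon gamma and type I interferons and act on membranes around intracellular pathogens. Igtp, also called Irgm3, a GTPase of endoplasmic reticulum and lipid droplets, had intensities of 1475, 1634 and 1128 in control mice 1 to 3 and 2318, 2291 and 2568 in knockout mice 1 to 3. Every knockout mouse exceeded every control mouse, and the means were 1412 ± 258 for control and 2392 ± 153 for knockout (SD, n = 3), a log2 difference of 0.77 ± 0.16 (SE, adjusted p = 0.171). Irgm1, a regulatory GTPase known to protect stem cells and lymphocytes during interferon responses, had 1393, 1604 and 1423 in control mice 1 to 3 and 2316, 2051 and 2441 in knockout mice 1 to 3. The groups again did not overlap, at means of 1473 ± 114 for control and 2269 ± 199 for knockout (SD, n = 3) and a log2 difference of 0.62 ± 0.12 (adjusted p = 0.152). The lowest knockout value of Irgm1 was that of mouse 2.

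The other 4 GTPases overlapped between groups. Ifi47, also called IRG-47, had 2497, 2887 and 2525 in the controls and 3021, 2586 and 3069.6 in the knockouts (log2 difference 0.13, 95% interval -0.16 to 0.42). Iigp1, which attacks parasite vacuoles, had 197, 279.6 and 170.1 in the controls and 293, 164 and 233 in the knockouts (log2 difference 0.081, 95% interval -0.53 to 0.69). For both genes, knockout mouse 2 gave the lowest knockout value. Gbp2, a guanylate-binding protein, had 315, 499.6 and 356 in the controls and 452, 370.4 and 516 in the knockouts (log2 difference 0.20, 95% interval -0.29 to 0.69). Its relative Gbp3 had 581, 840.0 and 686 in the controls and 778, 658 and 698 in the knockouts (log2 difference 0.031, 95% interval -0.35 to 0.41), a sign that turned after quantile normalization and without control mouse 1 or knockout mouse 1. These GTPases belong to families of similar genes, so a probe set may read more than its named gene.

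Among the factors that carry the signal, Irf9, the DNA-binding part of ISGF3, had 1219, 1424 and 1111 in control mice 1 to 3 and 1713, 1664 and 1869 in knockout mice 1 to 3. The groups did not overlap, with means of 1251 ± 159 for control and 1749 ± 107 for knockout (SD, n = 3), a log2 difference of 0.48 ± 0.13 (SE, adjusted p = 0.235). Stat2, its partner, had 201, 228 and 244 in the controls and 263, 221 and 268 in the knockouts, a log2 difference of 0.15 ± 0.13 (adjusted p = 0.678). The groups overlapped, and the dimmer probe set of Stat2 gave -0.090. Irf7, the factor that amplifies interferon production, had 3236, 3328 and 2417 in the controls and 3644, 2606 and 4139 in the knockouts. Its log2 difference was 0.20 ± 0.21 (adjusted p = 0.758), and in each group the highest mouse stood well over the lowest, 1.38-fold in the controls and 1.59-fold in the knockouts.

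Usp18 and Trim25 act in ubiquitin-like modification by ISG15 and in ubiquitination. Usp18, the protease that removes ISG15 and damps signalling at IFNAR2, had 839, 1164 and 716 in control mice 1 to 3 and 1445, 1117 and 1739.7 in knockout mice 1 to 3. Control mouse 2 lay above knockout mouse 2, so the groups overlapped in spite of a log2 difference of 0.66 ± 0.23 (SE, adjusted p = 0.342). Trim25, a ubiquitin ligase that activates the RNA sensor RIG-I, had 1705, 1747 and 1444 in the controls and 1958, 2045 and 1943 in the knockouts. Its groups did not overlap and the log2 difference was 0.28 ± 0.11 (adjusted p = 0.387). All 3 probe sets of Trim25 had knockout values above every control value, with log2 differences from 0.28 to 0.33. The probe set shared by Isg15 and Gm9706, which is not counted here, had 10132, 9704 and 8609 in the controls and 12157, 11643 and 13799 in the knockouts, without overlap (log2 difference 0.40 ± 0.12, adjusted p = 0.279).

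The IFIT proteins, which bind foreign RNA and block its translation, had 95% intervals that spanned 0 and varied widely between mice. Ifit1 had 1288, 1666 and 1098 in control mice 1 to 3 and 1208, 776 and 1566 in knockout mice 1 to 3. The highest value was in control mouse 2 and the lowest in knockout mouse 2, and the log2 difference was -0.22 (95% interval -0.90 to 0.45). Without knockout mouse 2 it was 0.047. Ifit2 had 375, 692 and 461 in the controls and 532, 376 and 526 in the knockouts (log2 difference -0.060, 95% interval -0.66 to 0.54), and its sign turned without either mouse 2. Ifit3 had 361, 666 and 354 in the controls and 551, 379 and 570.4 in the knockouts (log2 difference 0.16, 95% interval -0.53 to 0.84). In Ifit2 and Ifit3, control mouse 2 exceeded all 3 knockout mice.

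The OAS family makes oligoadenylates that activate RNase L when double-stranded RNA is present. Oas1a, which has near-identical neighbours, had 1228, 2086 and 1123 in control mice 1 to 3 and 1367, 1102 and 1842 in knockout mice 1 to 3. Control mouse 2 was the highest of all 6, and the log2 difference was -0.017 (95% interval -0.71 to 0.68), a sign that turned after median centring, with array weights and without control mouse 2, knockout mouse 1 or knockout mouse 2. Oas2 had 539, 659 and 464 in the controls and 535, 463 and 631 in the knockouts (log2 difference -0.025), and Oas3 had 791, 825 and 759 in the controls and 861, 775 and 1036 in the knockouts (log2 difference 0.16). Both overlapped between groups, and the sign of Oas2 turned with array weights and without either mouse 2. Oasl1, an OAS-like protein known to block translation of Irf7, had 268, 388 and 261 in the controls and 448, 375 and 596 in the knockouts, a log2 difference of 0.60 ± 0.22 (adjusted p = 0.355). Of the controls, mouse 2 alone reached the knockout range, where it exceeded knockout mouse 2. Oasl2 had 1987, 2560.3 and 1579 in the controls and 2759, 2022 and 2916 in the knockouts, a log2 difference of 0.34 ± 0.22 (adjusted p = 0.582).

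Of the 8 other antiviral effectors, Parp14 alone had groups that did not overlap. This protein, a mono-ADP-ribosyltransferase, had 862, 928 and 837 in control mice 1 to 3 and 1165, 1035 and 1573 in knockout mice 1 to 3. The means were 876 ± 46.9 for control and 1258 ± 281 for knockout (SD, n = 3), a log2 difference of 0.49 ± 0.17 (SE, adjusted p = 0.329), and knockout mouse 3 stood apart from the other two. Without that mouse the difference was 0.32. A dimmer probe set of Parp14 overlapped, with a difference of 0.11.

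Rsad2 (viperin), an enzyme that makes a chain-terminating nucleotide, gave one of the brightest signals on the arrays, at percentile 99.98 of probe sets. Its brightest probe set had 26090.2, 22755 and 24959 in the controls and 25398, 26353 and 26692 in the knockouts, a log2 difference of 0.090 ± 0.10 (95% interval -0.15 to 0.33). After cyclic loess normalization the difference was -0.029. The other 2 probe sets of Rsad2 had means of 15226 against 18523 and 13761 against 16555. In both of these the 3 knockout values all exceeded the 3 control values, with log2 differences of 0.29 and 0.27 (adjusted p = 0.374 and 0.423). In all 3 probe sets control mouse 2 was the lowest control, the place it also had in the erythroid markers and in none of the other 30 genes. The highest intensity on each array was between 38113 and 40360, and whether the brightest probe set approached saturation was not tested.

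Samhd1, which degrades deoxynucleotides, had 3908, 4988 and 4633 in the controls and 4820.1, 5384 and 5434 in the knockouts (log2 difference 0.21 ± 0.13, adjusted p = 0.549). Its 5 probe sets had differences from 0.044 to 0.35, and in 1 of them, a dimmer one, the groups did not overlap. Bst2 (tetherin), which holds budding virus at the membrane, had 398, 539 and 508 in the controls and 704, 461 and 527 in the knockouts (log2 difference 0.21 ± 0.19). Knockout mouse 1 was its highest value, and the groups overlapped. Bst2 also marks plasmacytoid dendritic cells, whose 9 other markers had the lower sums in the knockouts given above. Rtp4, a receptor transporter protein, had 2266, 3186 and 1748 in the controls and 2746, 2186 and 3537 in the knockouts (log2 difference 0.25 ± 0.27). Xaf1, a partner of the apoptosis inhibitor XIAP, had 1978, 2429.8 and 1879 in the controls and 1933, 1793 and 2531 in the knockouts (log2 difference -0.014), a sign that turned under median centring, array weights and without control mouse 2, knockout mouse 1 or knockout mouse 2. In both Rtp4 and Xaf1, control mouse 2 and knockout mouse 3 were the highest of their groups on the brightest probe set. A much dimmer probe set of Xaf1 gave 0.13, at means of 29.2 and 32.6.

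The Mx proteins are dynamin-like GTPases that trap viral nucleocapsids. Mx1 had 174, 289 and 183 in the controls and 259.7, 180.3 and 207 in the knockouts (log2 difference 0.020), and its sign turned without control mouse 1, control mouse 3 or knockout mouse 1. Mx2 had 12.3, 15.7 and 3.07 in the controls and 5.19, 4.85 and 3.07 in the knockouts. These values lay at percentile 5.57 of probe sets, and the deposited table carries no detection calls, so no direction is read from the log2 difference of -0.34, which was -0.87 with a pseudocount of 1 and -0.12 with one of 64.

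The 2 RNA sensors had differences of opposite sign. Ifih1 (MDA5), which detects long double-stranded RNA, had 757, 944 and 808 in the controls and 968, 931 and 1296 in the knockouts (log2 difference 0.33 ± 0.16, adjusted p = 0.472). The groups overlapped in control mouse 2 and knockout mouse 2. Dhx58 (LGP2), its regulator, had 285, 416 and 356 in the controls and 319.6, 268 and 375 in the knockouts (log2 difference -0.13, 95% interval -0.56 to 0.31). The 2 dimmer probe sets of Dhx58 had differences of -0.027 and 0.10, the latter at means of 19.2 and 23.7.

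Ifi35, which forms a complex with NMI, had 2646, 3152 and 2606 in control mice 1 to 3 and 3623, 3583 and 4094 in knockout mice 1 to 3. The groups did not overlap, with means of 2801 ± 304 for control and 3767 ± 284 for knockout (SD, n = 3), a log2 difference of 0.43 ± 0.12 (SE, adjusted p = 0.263). All 3 probe sets of Ifi35 were without overlap, at log2 differences from 0.36 to 0.43. Ifi27, a small hydrophobic protein of mitochondria, had 4114, 3743 and 3073 in the controls and 4141, 4098 and 5886 in the knockouts (log2 difference 0.36 ± 0.19, adjusted p = 0.497). Knockout mouse 3 was highest, and control mouse 1 exceeded knockout mouse 2.

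**Figure D2:**
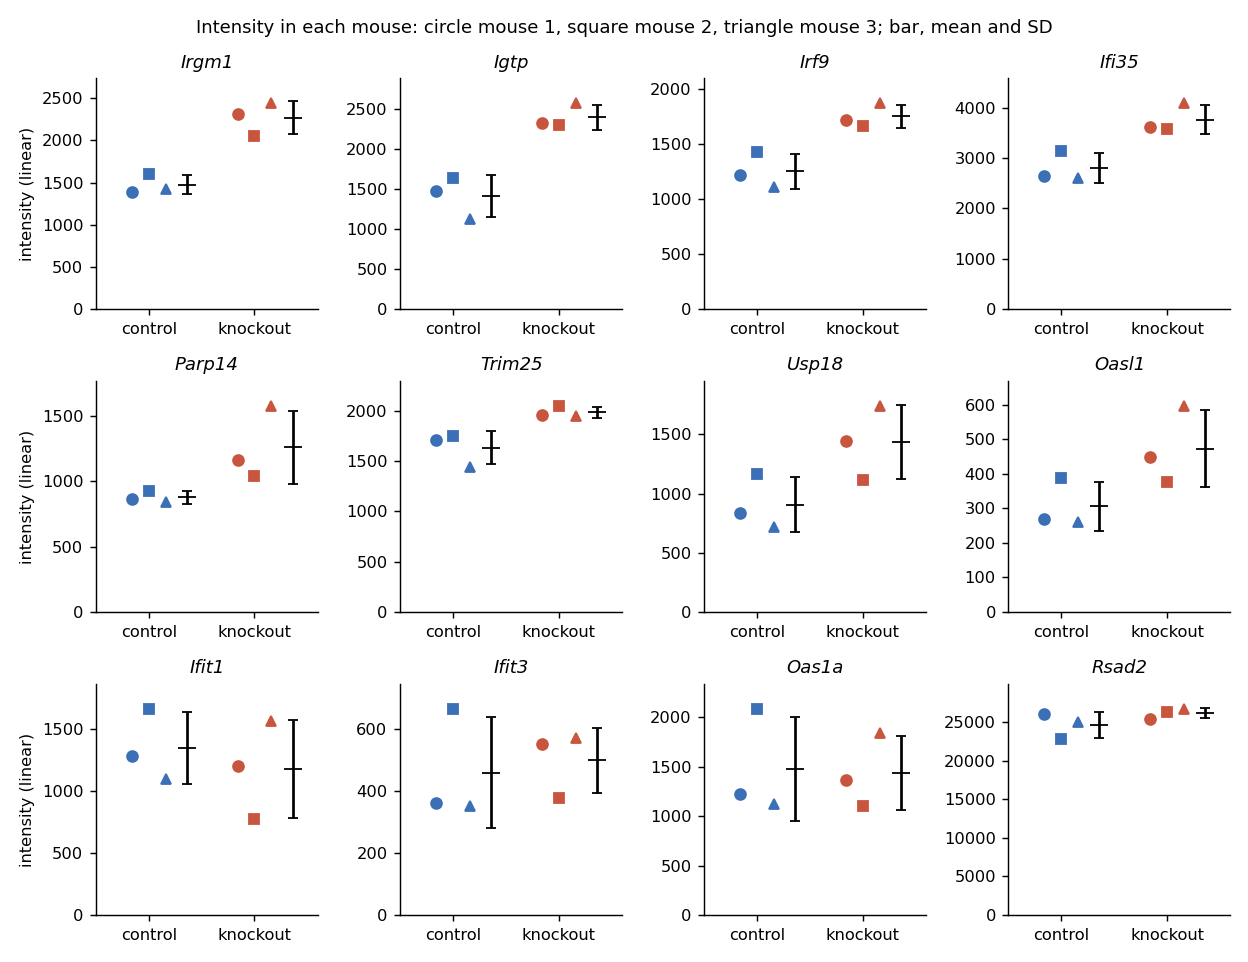
Linear intensity in each mouse for 12 genes (circle mouse 1, square mouse 2, triangle mouse 3; blue control, red knockout), with mean and SD over 3 mice beside the points. The first 6 genes do not overlap between groups, while in Ifit1, Ifit3 and Oas1a the highest point is control mouse 2.

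A pattern shared by most of the genes lay between mice of one group. Among the controls, mouse 2 had the highest value in 28 of the 31 genes, the exceptions being Stat2, Rsad2 and Ifi27. Among the knockouts, mouse 3 had the highest value in 24 genes and mouse 2 the lowest in 27. Over all genes, these mice were highest or lowest in their group in 32.9%, 34.2% and 30.6% of cases. The median deviation from the mean of the own group was 0.22 on the log2 scale for control mouse 2, -0.16 for control mouse 3, 0.20 for knockout mouse 3 and -0.21 for knockout mouse 2. The same medians over all genes lay between -0.0083 and 0.010. The within-group SD of the 26 genes in the brightest 25% of probe sets had a median of 0.23 on the log2 scale, against 0.10 over the 6589 genes of that class.

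The order of mice was also seen in 77 interferon-stimulated genes outside the set. Control mouse 2 had their highest control value in 59 of 77, knockout mouse 3 the highest knockout value in 45 and knockout mouse 2 the lowest in 47. The pattern was noticed in these data and is given as counts, without a test. Lists of other genes also differed between these mice. All 9 measured erythroid markers were lowest in control mouse 2 among controls and highest in knockout mouse 3 among knockouts. For control mouse 2 the erythroid markers thus had a median deviation of -0.26 where the interferon-stimulated genes had 0.22, while in knockout mouse 3 both were above 0, at 0.10 and 0.20. Genes of antigen presentation were highest in control mouse 2 in 14 of 18, at a median deviation of 0.083. T and NK cell markers were highest in control mouse 2 in 7 of 11, at 0.17, and lowest in knockout mouse 2 in 6 of 11, at -0.13. In knockout mouse 3 they were highest in 2 of 11, at -0.068. Among the knockouts, B cell markers were highest in mouse 2 in 8 of 10, at a median deviation of 0.28. In knockout mouse 3, eosinophil, basophil and mast cell markers were lowest in 6 of 6, at -0.27, and plasmacytoid dendritic cell markers in 7 of 9, at -0.10. Whether the makeup of the sorted cells had a part in the spread was not tested. In the 6 genes whose groups did not overlap, control mouse 2 was also the highest control in all 6, at a median deviation of 0.15, against 0.27 in the other 25. Genes without overlap are those whose highest control stays under every knockout value. That choice itself favours a small deviation of control mouse 2, so nothing is read from the contrast.

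**Figure D3:**
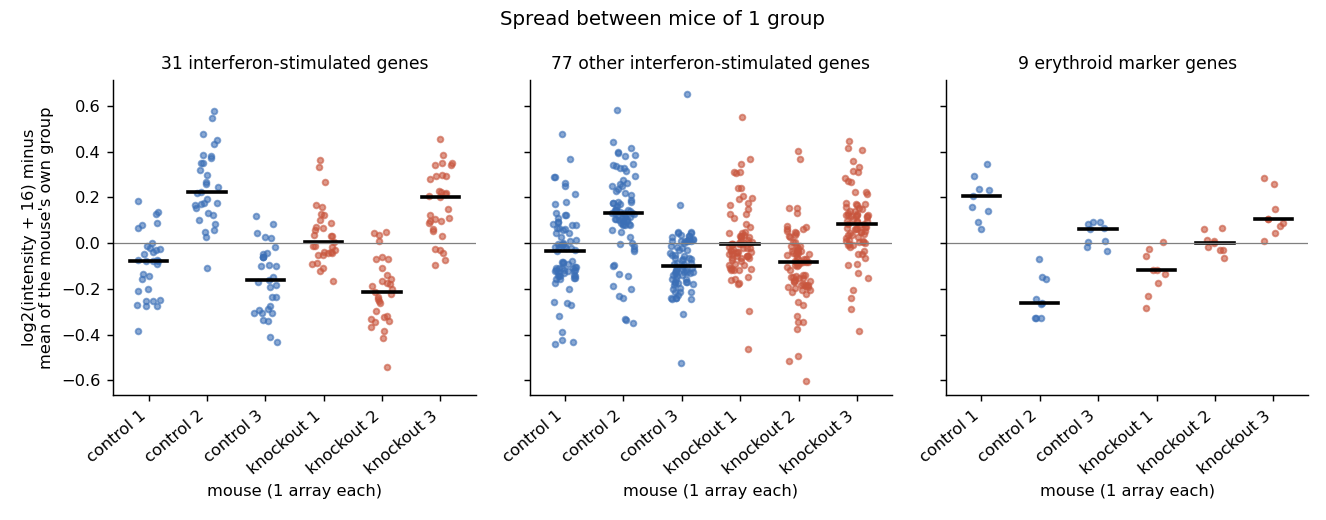
Deviation of each gene from the mean of the mouse's own group, on the log2 scale, for the 31 interferon-stimulated genes, 77 others and 9 erythroid markers. Each point is a gene and each bar the median over genes; control mouse 2 has a median of 0.22 in the first panel and -0.26 in the last.

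**Figure D4:**
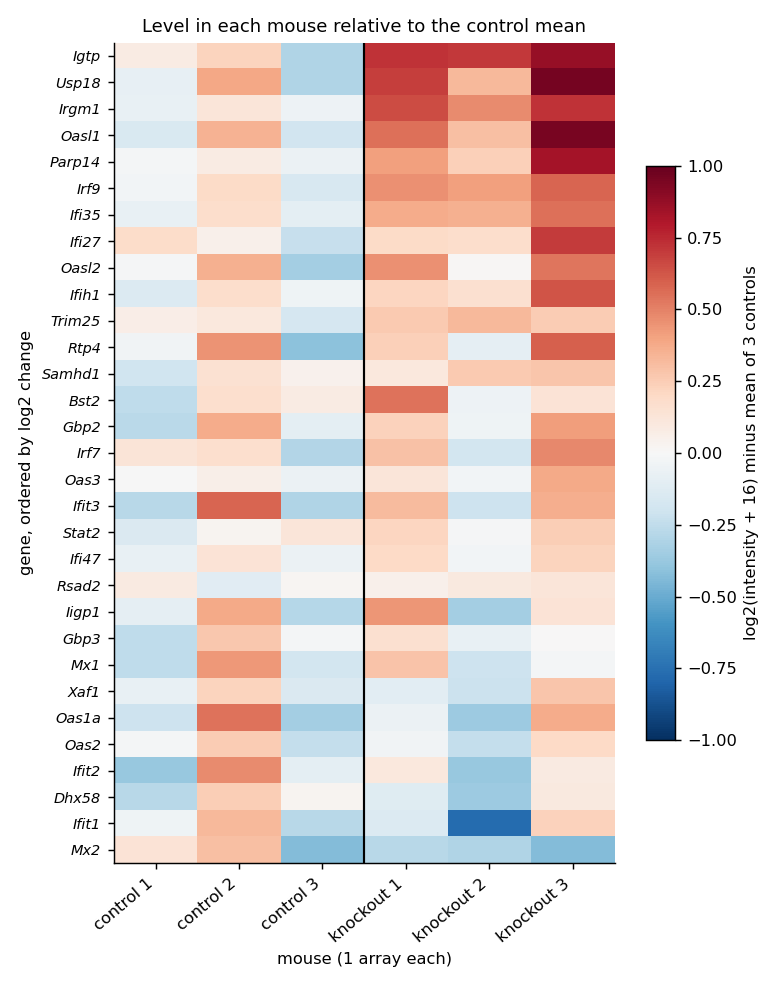
Level of each of the 31 genes in each mouse, as log2(intensity + 16) minus the mean of the 3 controls (red above, blue below), ordered by log2 change from Igtp to Mx2. Control mouse 2 has the highest control value in 28 rows, and knockout mouse 2 the lowest knockout value in 27.

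The other genes of the pathway were taken from lists by function, and none of them passed the test over all probe sets. Of 19 interferon genes, 10 were measured, none had an unadjusted p under 0.05 and none was without overlap. Over all genes, 8.18% were higher and 4.53% lower at that p, and 12.3% lay all above and 9.23% all below the controls. With 10 genes, nothing is read from these counts. Their intensities summed to 380.3 to 446 per control mouse and 396 to 435 per knockout mouse. Ifnb1, interferon beta, had 27.1, 43.6 and 29.8 in the controls and 38.1, 28 and 28.2 in the knockouts, and Ifng, interferon gamma, had 85.3, 103 and 97.5 in the controls and 112, 58.3 and 94 in the knockouts, both with overlapping groups. Ifna4 had the smallest p, with means of 6.65 and 11.4, a level so low that no direction is read from it.

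All 6 receptor chains were measured. Ifnar2, the type I receptor chain that USP18 binds, had 2569, 2367 and 2486 in the controls and 2987, 2912 and 3131 in the knockouts (log2 difference 0.28 ± 0.10, adjusted p = 0.326). Ifnar1, its partner, had 480.3, 510.0 and 436 in the controls and 587, 551 and 583 in the knockouts (log2 difference 0.27 ± 0.10, adjusted p = 0.379). Both were without overlap, as was Il10rb, a chain shared with the interleukin-10 receptor (0.23). All 3 were among the 5 chains in the brightest 25% of probe sets, a class where 22.7% of genes had knockout values all above the controls. The receptor chains for interferon gamma overlapped between groups, with differences of 0.022 for Ifngr1 and -0.087 for Ifngr2, as did Ifnlr1, a chain of the interferon lambda receptor (-0.15).

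Of 17 measured genes of JAK-STAT and IRF signalling outside the set, 2 were lower at an unadjusted p under 0.05 and 0 higher, where all genes gave 4.53% and 8.18%. All knockout values lay below all control values in 6 and above in 1, where all genes gave 9.23% and 12.3%. Of the 14 in the brightest 25% of probe sets, 5 lay below and 1 above, where genes of that class gave 13.6% and 22.7%. The median of the 17 was -0.10. Irf4, a factor of lymphoid cells, had 1111, 1108 and 1132 in the controls and 701, 848 and 494 in the knockouts (log2 difference -0.73 ± 0.20, adjusted p = 0.242). Irf1, itself a rapid target of interferon gamma, had 1676, 1644 and 1626 in the controls and 1473, 1340.1 and 1358 in the knockouts (log2 difference -0.24 ± 0.095, adjusted p = 0.374). In both, the knockout mice all lay under the controls, the opposite side from Irf9. Irf8 and Stat5a had differences of -0.20 and -0.20.

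Of 18 inhibitors of cytokine and interferon signalling, 3 were higher and 2 lower at an unadjusted p under 0.05, where all genes gave 8.18% and 4.53%. Of the 12 in the brightest 25% of probe sets, 2 were higher, where 13.7% of genes of that class were. The median of the 18 was 0.015. Cish, a SOCS family target of erythropoietin signalling through STAT5, had a log2 difference of 1.00 ± 0.16 (adjusted p = 0.101), and the phosphatase Ptpn11 one of 0.58 ± 0.11 (adjusted p = 0.139). Tnfaip3 (A20) and Socs2 had -0.50 and -0.86. The groups of these 4 did not overlap. Of all 18, knockout values all lay above the controls in 3 and below in 4, where all genes gave 12.3% and 9.23%.

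Of 19 measured nucleic acid sensors and adaptors, 3 were higher and 0 lower at an unadjusted p under 0.05, where all genes gave 8.18% and 4.53%. Of the 10 in the brightest 25% of probe sets, 2 were higher, where 13.7% of genes of that class were. The median of the 19 was 0.028. The 3 were Tank, an adaptor of the kinase TBK1 (0.45), Tlr8 (0.56, at mean intensities of 21.7 and 39.5) and Tbk1 itself (0.28). Next by p was the adaptor Mavs, with 0.21. Of 7 genes that restrict retroelements and self nucleic acids, none had an unadjusted p under 0.05. The median was 0.030, and Rnaseh2c had 0.27.

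Of the 77 measured interferon-stimulated genes outside the set, 20 were higher and 0 lower at an unadjusted p under 0.05. Over all genes these shares were 8.18% and 4.53%. In 23 all knockout values lay above all control values and in 4 below, where all genes gave 12.3% and 9.23%. Of the 55 in the brightest 25% of probe sets, 16 lay above and 2 below (29.1% and 3.64%), where genes of that class gave 22.7% and 13.6%. The median of the 77 was 0.11. Tmem140, a membrane protein, had 498, 368 and 362 in the controls and 878, 954 and 942 in the knockouts (log2 difference 1.16 ± 0.15, adjusted p = 0.0733). Irgm2, of the same GTPase family as Irgm1 and Igtp, had 318, 382 and 267 in the controls and 589.7, 522 and 629 in the knockouts (log2 difference 0.83 ± 0.16, adjusted p = 0.149). The groups of both did not overlap. Oas1e, of the OAS family, and Trim56, a ubiquitin ligase, followed with 0.50 and 0.66.

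Genes of antigen presentation, many of them also induced by interferons, had log2 differences above 0 in 9 and below 0 in 9. Of these 18, 0 were higher and 1 lower at an unadjusted p under 0.05, where all genes gave 8.18% and 4.53%. All knockout values lay below all control values in 6 and above in 0, where all genes gave 9.23% and 12.3%. Of the 16 in the brightest 25% of probe sets, 5 lay below, where 13.6% of genes of that class did. Psmb8, an immunoproteasome subunit, had 2102, 2356 and 2140.4 in the controls and 1896, 1722 and 1749 in the knockouts (log2 difference -0.29 ± 0.10, adjusted p = 0.333). The subunits Psmb10 and Psmb9 had -0.24 and -0.23, and the chaperone Pdia3 -0.22. The median of the list was -0.024.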

How the data were processed

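RNA of sorted erythroid progenitors was hybridised to Affymetrix arrays, 1 array for each of 3 control and 3 knockout mice. The values are the probe set intensities of the authors' deposited table, on a linear scale; no source used here states the background correction, summarisation or normalization behind them. Per the deposited platform annotation, 34945 of 45037 probe sets name 1 gene, 932 several and 9160 none. Symbols were updated through RefSeq, where 34741 of the 34945 matched. A gene was read by its brightest single-gene probe set, chosen by mean over all arrays.

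Log2(intensity + 16) was computed from the deposited intensities without further normalization, since array medians and interquartile ranges differed by at most 0.070 on that scale. Groups were compared with limma (version 3.58.1, R 4.3.3) by lmFit and eBayes without an intensity trend. The two-sided p-values of all 45037 probe sets were adjusted together by Benjamini-Hochberg and read at 0.05, and the procedure was tested on simulated data. Errors on log2 differences are standard errors. The number of arrays limits the precision. The genes and the other lists were chosen with earlier results of these data known. Every gene of the set is described, and of each other list up to 4 genes by smallest p. Beside these, Hbb-y, Ifnb1, Ifng, Ifngr1, Ifngr2, Tfrc and Slc4a1 were chosen after their values were seen. Neighbours on the chromosome were named by position, whatever their p. Alternatives were other normalizations, pseudocounts of 1 and 64, 1 probe set per gene, filters on dim probe sets, array weights, robust moderation with an intensity trend, the mouse number as a block, and leaving out each mouse.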

Additional observations from a re-analysis of the deposited data

How the results depend on the processing

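In the main limma test 0 of the 31 genes passed and 8 had an unadjusted p under 0.05. The count of genes called higher was 2 with a pseudocount of 64, 2 in the brightest 50% of probe sets, 4 in the brightest 25% and 4 with an intensity trend and robust moderation; in every other alternative run it was 0, and 0 were called lower in any. Over all probe sets the main test called 63 higher and 3 lower, against 508 and 50, 708 and 145, 1302 and 352, and 1206 and 239 in those 4 settings, and 38 and 0 with a pseudocount of 1. Leaving out 1 mouse gave 27 to 41 higher over all probe sets, and 4 (without control mouse 1) to 8 (without control mouse 2) of the 31 genes at an unadjusted p under 0.05. The share of all genes under that unadjusted p in these fits is not given here. The median log2 change stayed above 0, from 0.087 without knockout mouse 3 to 0.29 without control mouse 2. The genes without overlap numbered 5 after quantile normalization and 8 after median centring. Shares over all genes in these 2 settings are not given here, so these counts cannot be set against them. The sign of 22 genes held in every alternative and that of 9 did not. The cause was not tested. Oas1a was at 0.0020 after median centring and 0.040 with array weights, Xaf1 at 0.0058 and 0.0061. Oas2 was at 0.021 with array weights, Rsad2 at -0.029 after cyclic loess and Gbp3 at -0.0049 after quantile normalization. Over the fits that leave out 1 mouse, Ifit1 ran from -0.45 to 0.047, Ifit2 from -0.25 to 0.18, Oas1a from -0.21 to 0.26, Oas2 from -0.14 to 0.10, Mx1 from -0.11 to 0.24, Xaf1 from -0.16 to 0.097, Iigp1 from -0.10 to 0.29 and Gbp3 from -0.095 to 0.17. Of the 22 with a constant sign, leaving out 1 mouse moved 15 by over 1.5 times and 7 by less (Irf9, Usp18, Trim25, Oasl1, Ifi35, Igtp and Irgm1). Among the 15, Ifit3 ran from 0.0044 to 0.45, Irf7 from 0.051 to 0.39, Rtp4 from 0.043 to 0.47, Bst2 from 0.044 to 0.34, Gbp2 from 0.065 to 0.39, Oas3 from 0.046 to 0.25, Dhx58 from -0.26 to -0.0037 and Parp14 from 0.32 to 0.62. Dim probe sets such as that of Mx2 have no detection call.

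Mice with the same number in both groups did not deviate together (correlations of -0.035, -0.014 and -0.040 over probe sets). A pairing need not show over all probe sets, so these values cannot tell whether the numbers pair the mice. With the replicate block, 0 of the 31 genes passed, 5 had an unadjusted p under 0.05, and 14 probe sets were called higher and 0 lower over all probe sets. The share of all genes under that unadjusted p with the block is not given here.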

Other observations

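Several of these genes lie beside other interferon-stimulated genes on the chromosome, with no protein-coding gene between them in RefSeq. Igtp, at a log2 difference of 0.77 (knockout minus control), neighbours the GTPase gene Irgm2, at 0.83. Rsad2, at 0.090, neighbours Cmpk2, a mitochondrial nucleotide kinase, at 0.64. Ifi27, at 0.36, lies between Ifi27l2b, at 0.69, and Ifi27l2a, at -0.019. Parp14, at 0.49, neighbours Dtx3l, a ubiquitin ligase, at 0.27. Oasl2 and Oasl1, at 0.34 and 0.60, are neighbours, as are Oas3 and Oas1e, at 0.16 and 0.50. The other adjacent pairs had smaller or negative values, with Ifit1bl2 and Ifit1 at -0.057 and -0.22, Ifit2 and Ifit3 at -0.060 and 0.16, Ifit3 and Ifit1bl1 at 0.16 and 0.064, Gbp7 and Gbp3 at -0.024 and 0.031, and Oas2 and Oas3 at -0.025 and 0.16. With 1 protein-coding gene between them, Gbp3 and Gbp2 had 0.031 and 0.20, and Oas1h and Oas1a -0.24 and -0.017. None of these passed the limma test over all probe sets, with adjusted p from 0.149 (Irgm2) to 0.988 (Oas1a). Similar neighbours may share probes, and their part in these values was not tested.

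Bcl11a lies on chromosome 11, as do 7 of the 31 genes (Irgm1, Ifi47, Igtp, Xaf1, Trim25, Dhx58 and Ifi35). Their median log2 difference was 0.28, beside 0.0021 over the 1445 other genes measured on that chromosome and 0.18 over the 24 genes of the set on others. The knockout values all lay above the control values in 4 of the 7, in 15.0% of the other genes of chromosome 11 and in 2 of the 24. In the brightest 25% of probe sets these were 4 of 6 and 26.9%. With 7 genes, nothing particular to the chromosome is read from these counts. The arrays carry no genotype of the flanking region, so strain differences near the targeted allele were not tested.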
